A study of Mus musculus with 80 samples.

Results

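DNA methylation was compared after 96 h in 2i between mouse embryonic stem cells (ESCs) that lack all 3 TET proteins (TET TKO, genotype TET1/2/3-/-) and their wild-type control ESCs (TET WT). The unit of comparison was the autosomal tile of 500 bp that held at least 20 calls and 3 CpG positions in each of the 4 libraries, 2 per genotype. This rule kept 44785 tiles of the 1768833 autosomal tiles with any call in the 50 usable reduced representation bisulfite sequencing (RRBS) libraries of the series. The same rule in the libraries of other times gave 57374 tiles in serum, 46259 at 48 h and 64635 at 168 h. RRBS reads methylation in CpG-rich fragments cut by a restriction enzyme, so islands and promoters weigh heavily in it. Both lines carry the mixed strain background C57/129/FVB and were grown with LIF in medium with fetal calf serum before transfer to serum-free N2B27 with LIF, the MEK inhibitor PD0325901 and the GSK3 inhibitor CHIR99021. The deletion of Tet1, Tet2 and Tet3 is constitutive, so the mutant cells lacked the proteins in serum as well. As far as the labels say each genotype is 1 line, so a difference between genotypes and a difference between lines cannot be told apart. The labels do not state whether the 2 libraries of a group come from separate cultures, and p-values therefore measure only the spread between these libraries. No RNA of the TET lines was analysed here, so neither the deleted genes nor markers of the ESC state could be checked in them.

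TET proteins oxidise 5-methylcytosine to 5-hydroxymethylcytosine and further products, which can be diluted at replication or replaced by repair. In ESCs they are best known at enhancers, at the edges of CpG islands and at promoters of germ line genes, many of which are silenced by methylation in other cells. Bisulfite treatment does not separate 5-methylcytosine from 5-hydroxymethylcytosine, so "methylation" stands here for their sum. In 2i, maintenance and new methylation are both weakened and ESCs lose methylation over several divisions.

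The promoters shown here are those of 4 germ line genes whose tile was called higher in TET TKO, together with Gpat2 and Zfp560, the promoters with the largest differences of all. Each run is the 250 bases before the RefSeq gene start, read 5′ to 3′ on the gene's strand in GRCm38.p6. Capitals mark the CpGs that had calls in all 4 libraries at 96 h, so a CpG in lower case was not read in every library. The places are chr3:102936101-102936350, minus strand for Sycp1, chr3:95559429-95559678, plus strand for Hormad1, chr3:55181794-55182043, plus strand for Sohlh2, chr6:18109062-18109311, minus strand for Asz1, chr2:127424949-127425198, plus strand for Gpat2 and chr9:20385159-20385408, minus strand for Zfp560.
Sycp1: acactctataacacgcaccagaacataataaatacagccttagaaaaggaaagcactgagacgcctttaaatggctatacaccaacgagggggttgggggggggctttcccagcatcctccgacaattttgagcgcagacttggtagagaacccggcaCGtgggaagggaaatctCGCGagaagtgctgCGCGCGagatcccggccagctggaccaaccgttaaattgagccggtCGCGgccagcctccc
Hormad1: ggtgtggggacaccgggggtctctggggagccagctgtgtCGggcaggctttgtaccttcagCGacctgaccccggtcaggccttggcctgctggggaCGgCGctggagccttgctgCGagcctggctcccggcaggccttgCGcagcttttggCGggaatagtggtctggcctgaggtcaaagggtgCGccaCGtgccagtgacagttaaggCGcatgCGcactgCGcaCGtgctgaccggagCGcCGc
Sohlh2: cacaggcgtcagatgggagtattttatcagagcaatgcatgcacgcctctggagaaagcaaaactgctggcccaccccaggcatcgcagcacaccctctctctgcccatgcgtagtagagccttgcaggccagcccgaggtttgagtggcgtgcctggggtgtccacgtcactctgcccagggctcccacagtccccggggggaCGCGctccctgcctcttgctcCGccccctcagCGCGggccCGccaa
Asz1: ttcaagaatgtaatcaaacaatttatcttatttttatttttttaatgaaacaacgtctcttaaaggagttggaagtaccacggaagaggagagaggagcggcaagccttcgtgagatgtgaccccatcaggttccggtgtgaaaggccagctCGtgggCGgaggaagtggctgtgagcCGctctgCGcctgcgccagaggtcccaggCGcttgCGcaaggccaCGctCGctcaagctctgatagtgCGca
Gpat2: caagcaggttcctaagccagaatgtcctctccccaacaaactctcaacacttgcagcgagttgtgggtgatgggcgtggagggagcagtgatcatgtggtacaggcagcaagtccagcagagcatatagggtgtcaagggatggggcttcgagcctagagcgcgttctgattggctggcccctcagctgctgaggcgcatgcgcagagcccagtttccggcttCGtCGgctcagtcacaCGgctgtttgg
Zfp560: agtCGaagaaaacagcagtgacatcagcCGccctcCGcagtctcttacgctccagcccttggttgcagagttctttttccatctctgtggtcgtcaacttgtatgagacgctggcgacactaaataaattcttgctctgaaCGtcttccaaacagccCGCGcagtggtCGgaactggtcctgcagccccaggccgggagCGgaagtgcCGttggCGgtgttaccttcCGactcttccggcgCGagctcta

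The 4 libraries held 13147694 and 12723857 methylation calls in TET WT and 12353834 and 5594622 in TET TKO. TET TKO replicate 2 was thus the shallowest, with a median of 51 calls per tile against 111 to 123 in the other libraries. Tiles with many CpGs were read more deeply than tiles with few. Between libraries of 1 genotype the tiles varied more than counting alone would give, with a mean chi-square per tile of 1.43 in TET WT and 1.67 in TET TKO, where 1 stands for counting error. Calls copied from 1 molecule by PCR are not independent, so depth covers counting error only.

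Tiles were on average more methylated without TET proteins. The mean over tiles was 14.7% and 14.6% in the TET WT libraries, and 20.2% and 19.8% in the TET TKO libraries, so the groups did not overlap. Mean tile methylation was 14.6% ± 0.0686 (SD, n = 2) in TET WT and 20.01% ± 0.236 (SD, n = 2) in TET TKO, 1.37 times higher, with a difference of 5.39 percentage points. The exact two-sided permutation test over the 4 libraries gave p = 0.333, which is the smallest value that 2 against 2 allows. Pooled over all calls in the tiles, which gives deep CpG-rich tiles more weight, the levels were 5.63% ± 0.0914 (SD, n = 2) and 7.55% ± 0.306 (SD, n = 2). That difference was 1.92 points, and over tiles with at least 50 calls in each library the difference of the tile means was 2.12 points.

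The shift was uneven over tiles. The median tile differed by 0.68 points only, since most tiles were nearly free of methylation in both genotypes. Tiles under 5% made up 66.0% in both TET WT libraries and 56.3% and 56.5% in the TET TKO libraries. The classes from 40% to 80% gained the most tiles. The class from 40% to 60% held 9.37% and 9.51% in TET WT and 13.1% and 12.7% in TET TKO, and the class from 60% to 80% held 7.23% and 7.14% of tiles in TET WT, and 12.1% and 11.1% in TET TKO. At the top of the range, from 80% to 100%, the genotypes were closer, at 1.62% and 1.53% against 1.81% and 2.43%.

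**Figure D1:**
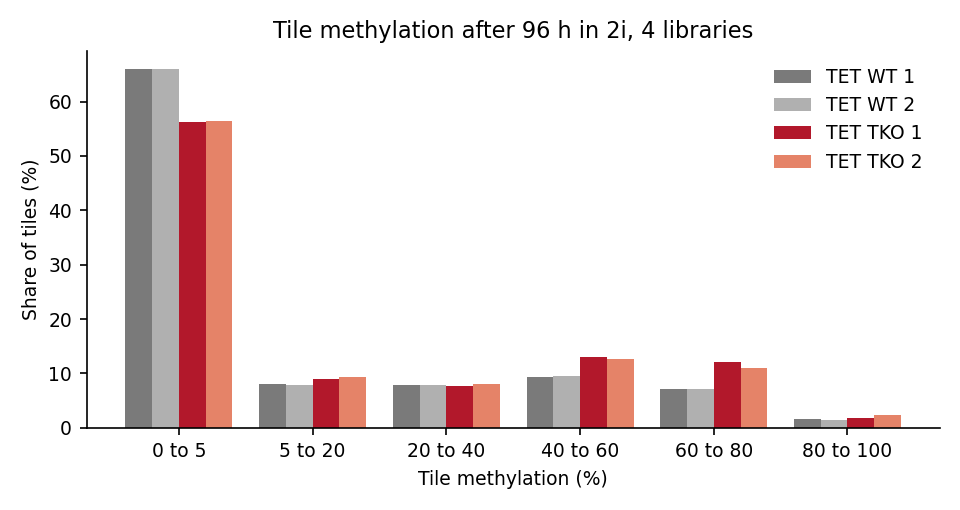
Share of the 44785 tiles (vertical axis, %) in 6 classes of tile methylation (horizontal axis, %) after 96 h in 2i, with 1 bar per library. Both TET TKO libraries hold fewer tiles under 5% and more tiles between 40% and 80% than both TET WT libraries.

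Single tiles were tested with a quasi-binomial model on methylated and unmethylated calls, and calls required an adjusted p (Benjamini-Hochberg, over all tiles) under 0.05 and pooled levels at least 20 points apart. Of the 44785 tiles 10.4% were called, 4536 of them higher in TET TKO (10.1% of all tiles) and 134 lower (0.299%), so 97.1% of the calls lay in the direction of more methylation without TET. In 4515 of the 4536 and in 132 of the 134, the 2 libraries of TET TKO did not overlap those of TET WT, which a pooled gap of this size makes likely by itself. Over all tiles 38.8% did not overlap with TET TKO higher and 7.11% with TET TKO lower. The median tile among those higher in TET TKO stood at 15.6% and 15.5% in the TET WT libraries, and at 51.4% and 50.0% in the TET TKO libraries. Their differences ran from 20 to 75.1 points with a median of 29.998, against a median gap of 8.83 points between the 2 TET TKO libraries of such a tile and 3.82 points between the 2 of TET WT. These tiles carried 59.9% of the summed difference over all tiles, and the tiles that were not called still differed by 2.53 points on average. The calls rest on a spread shared among tiles. With each tile's own dispersion no tile was called (3712 at an unadjusted p under 0.05), whereas limma on log2 ratios called 3747 higher and 94 lower. Without TET TKO replicate 1, 2629 tiles were called higher and 64 lower, and without TET TKO replicate 2, 2935 and 36.

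**Figure D2:**
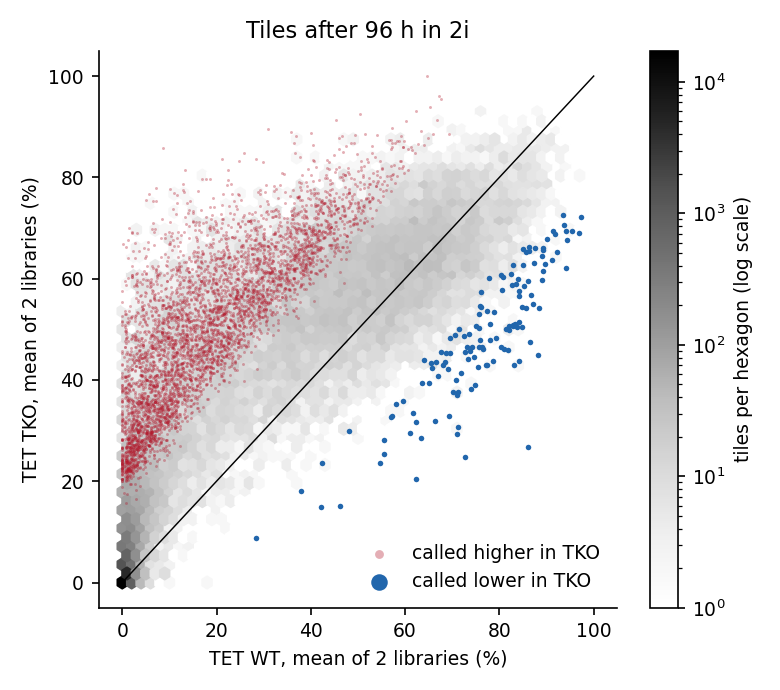
Methylation of each tile after 96 h in 2i as the mean of 2 libraries, in TET WT (horizontal axis, %) and TET TKO (vertical axis, %). Grey hexagons count tiles on a log scale, red points are the 4536 tiles called higher in TET TKO, blue points the 134 called lower, and the line marks equal levels. Red points fill the range of low and middle TET WT levels, whereas blue points lie at high TET WT levels.

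The 5 tiles with the largest differences are given with their value in every library. They were taken from called tiles without overlap of libraries, so the order of the libraries is part of the choice. At chr14:90298501-90299000 (NCBIM37, as are all tile positions) methylation was 14.3% and 3.06% in TET WT against 78.6% and 92.9% in TET TKO, a pooled difference of 75.1 points. Tile chr11:97929001-97929500 held 3.09% and 1.03% against 79.8% and 58.6%. The difference there was 73.1 points. At chr7:139529001-139529500 the values were 5.33% and 9.09% against 81.8% and 74.1%, a difference of 72.5 points. The 2 tiles that followed were chr3:145460501-145461000, with 8.22% and 1.82% against 84.5% and 66.7%, and chr5:64766001-64766500, with 5.43% and 6.06% against 76.6% and 76.9%. The adjusted p-values of the quasi-binomial model were between 3.8e-10 and 4.8e-08 in all 5, with 26 to 104 calls per library.

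Most tiles that were higher in TET TKO had no other tile called higher within 1000 bp. Of the 4536 tiles, 391 stood in 186 runs in which called tiles followed each other within 1000 bp, and 4145 stood alone. A tile with no tested neighbour also counts as alone, so sparse coverage and isolated differences are not told apart here. The 3 longest runs held 4 called tiles each. The first, chr5:24096501-24098500, had median levels of 9.85% and 13.7% in TET WT and 64.3% and 43.3% in TET TKO. The runs chr4:132617001-132621000 and chr4:141027501-141031500 had 21.9% and 16.9% against 52.9% and 55.4%, and 22.6% and 24.2% against 62.5% and 48.2%. The called tiles of these runs differed by 25.9 to 50.9 points. In all tiles called higher together, 92.4% of 32936 positions with calls in every library were higher in TET TKO. The choice of tiles by their pooled difference largely fixes that share, so it only describes them.

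The 134 tiles lower in TET TKO were highly methylated in TET WT. Their median level was 77.6% and 77.8% in the TET WT libraries against 50.7% and 46.7% in TET TKO. The most negative difference, of -58.9 points, was at chr10:97508501-97509000, with 81.8% and 90.5% in TET WT and 25% and 28.6% in TET TKO. At chr3:129364501-129365000 the values were 70.8% and 74.8% against 26.4% and 23.1%, and at chr8:4380001-4380500 they were 89.2% and 87.0% against 40% and 50%. Tile chr11:24496501-24497000 held 63.5% and 61.3% against 22.2% and 18.8%. The named tiles were chosen for their difference and for libraries without overlap, so their separation at 96 h restates the choice. In the last 3 of these 4 tiles TET TKO was also the lower line in serum, where chr11:24496501-24497000 held 83.3% and 83.1% in TET WT and 34.0% and 13.5% in TET TKO. E14 held 33.6% in serum at that tile, under TET WT, but 93.3% in serum at chr3:129364501-129365000, where TET WT held 77.0% and 91.8% and TET TKO 42.7% and 36.8%. The fifth tile, chr11:49966001-49966500, held 71.4% and 71.1% against 29.7% and 31.8% at 96 h. At the other times TET TKO was not the lower line there, with 97.6% in the 1 TET TKO serum library that covered it against 87.5% and 73.7% in TET WT, and 43.5% and 42.9% against 42.6% at 168 h. Without TET TKO replicate 1 its adjusted p was 0.0671, so its call depended on that library. Nearest to the limit of 20 points, chr8:123411501-123412000 was called at 20 and chr8:28267001-28267500 was not at 19.997.

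Calls depended on how methylated a tile was to begin with. Grouped by its level in E14, a wild-type ESC line whose libraries took no part in the test, a tile under 5% in serum was called higher in TET TKO in 32 of 24759 cases (0.129%). The share was 8.14% of 4113 tiles between 5% and 20%, 35.9% of 2286 tiles between 20% and 40%, and 46.5% of 2658 tiles between 40% and 60%. Of the 10571 tiles at 60% or more in E14, 19.4% were called higher and 112 of the 134 tiles called lower fell here. Thus tiles of middle methylation in another line were those most often called higher without TET. A call also needed 20 points, so smaller rises at low levels were not counted. Mean levels in TET WT and TET TKO were 0.401% and 1.02% in the class under 5%. They were 2.43% and 10.5% in the class from 5% to 20%, and 21.8% and 41.7% in that from 40% to 60%.

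CpG number moved with the calls in the same way. Tiles higher in TET TKO held a median of 8 CpGs with calls, against 17 in tiles that were not called and 6.5 in tiles that were lower. Among tiles with 6 to 10 CpGs 20.7% were called higher, among those with 16 to 20 CpGs 4.73%, and among those with 31 or more 7 of 9252, or 0.0757%. The median depth of the shallowest library rose across these classes, from 29 to 61 and 203 calls, so the classes with the fewest called tiles were the deepest. When only tiles at 20% or more in E14 serum were kept, the share was 27.3% with 6 to 10 CpGs and 33.3% with 16 to 20 CpGs. Among the 30 such tiles with 31 or more CpGs 5 were called. Distance from a placed promoter was read on the autosomes with promoter sequences. Most promoters were not placed, so a tile far from a placed start can still lie at a promoter. Within 500 bp of a start 1.09% of 8383 tiles were higher in TET TKO, between 2000 and 5000 bp 15.7% of 1367, and past 20000 bp 12.5% of 25603. Among tiles at 20% or more in E14 serum the shares were 34.1%, 31.6% and 25.3%, and thus no longer lowest at the start.

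**Figure D3:**
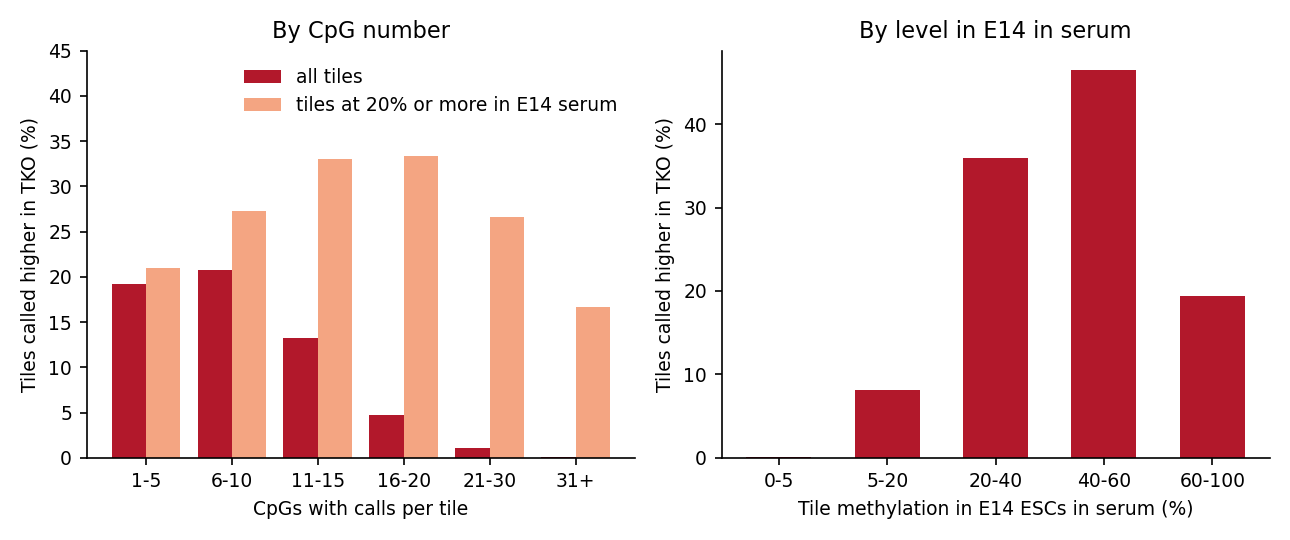
Share of tiles called higher in TET TKO at 96 h (vertical axes, %), by number of CpGs with calls (left) and by tile methylation in E14 ESCs in serum (right, %). Left, dark bars are all tiles and light bars those at 20% or more in E14 serum. The dark bars fall from 20.7% at 6 to 10 CpGs to 0.0757% at 31 or more, and the right bars peak at 46.5% between 40% and 60%.

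The libraries of serum, 48 h and 168 h took no part in the calls of 96 h and allowed the same tiles to be read again in the same lines. Of the 4305 tiles higher in TET TKO at 96 h that could be tested in serum, 3560 (82.7%) were called higher there, where 19.9% of all tiles were. At 48 h the share was 73.2% of 3743 tiles beside 11.9% of all tiles, and at 168 h 75.6% of 4452 beside 17.0%. The calls of 168 h compare 1 TET WT library with 2 of TET TKO. Their dispersion was the same value for all tiles (1.582), estimated over tiles from the TET TKO pair. The spread of TET WT and the spread of each single tile were thus not measured there. In the other direction, 51.7% of the 6892 tiles called higher in serum and covered at 96 h were called higher at 96 h. None of the tiles higher at 96 h was called lower at another time, but few tiles of any kind were. Of all tiles covered at both times, 0.0809% were called lower in serum and 0.102% at 48 h. The median difference of the tiles higher at 96 h was 32.0 points in serum, 29.8 at 48 h and 28.2 at 168 h, beside 29.998 at 96 h.

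Both lines lost methylation at these tiles while staying apart. Over the 3643 tiles covered in every TET library, the mean in TET WT was 37.4% and 37.3% in serum and 18.9% and 18.8% at 96 h. In TET TKO it was 70.4% and 70.4% in serum and 50.9% and 49.5% at 96 h. TET WT was thus at 50.5% of its serum level and TET TKO at 71.3%. These tiles were chosen on their 96 h values, so the shares are a description. Over all 39358 tiles covered in every TET library, called or not, TET WT was at 70.3% of its serum mean at 96 h and TET TKO at 68.7%, and at 168 h they were at 46.8% and 56.4%, with 1 TET WT library. Over all 39358 tiles the levels at 168 h were 8.13% in the single TET WT library and 14.04% and 14.06% in TET TKO. Over the 3643 tiles called higher at 96 h they were 9.45%, and 38.3% and 37.6%. Over the 3542 of these 3643 tiles covered in E14, that line lay between the genotypes, with 54.8% ± 0.500 (SD, n = 2) in serum and 32.1% ± 0.138 (SD, n = 2) at 96 h. TET WT was thus the lowest of the 3 lines in serum and at 96 h. By TET WT's own level in serum, 1097 of 4305 tiles (25.5%) were under 20%, with medians of 12.3% in TET WT and 49.6% in TET TKO in serum, and of 4.09% and 32.9% at 96 h. The largest class, 1908 tiles at 40% or more in TET WT serum, went from medians of 56.5% and 85.9% to 29.9% and 62.4%.

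Tiles lower in TET TKO at 96 h had another history. In serum 12 of the 117 tested (10.3%) were called lower, where 0.129% of all tiles were, and their median difference was 1.81 points in the opposite direction. At 48 h 13 of 91 were called lower (0.130% of all tiles) and at 168 h, again with 1 TET WT library of unmeasured spread, 27 of 124 (0.278% of all tiles), with medians of -4.41 and -9.63 points. Over the 84 tiles covered throughout, TET WT had 80.2% and 81.3% in serum and 75.7% and 73.8% at 96 h. TET TKO had 78.2% and 78.5% in serum, 72.7% and 70.8% at 48 h, 48.7% and 47.3% at 96 h, and 50.6% and 47.9% at 168 h. Over the 75 tiles covered in E14, that line had 73.4% ± 0.0749 (SD, n = 2) at 96 h. The 96 h values chose these tiles, so their gap at 96 h is a description and the smaller gaps at the other times are the measures that the choice did not use.

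**Figure D4:**
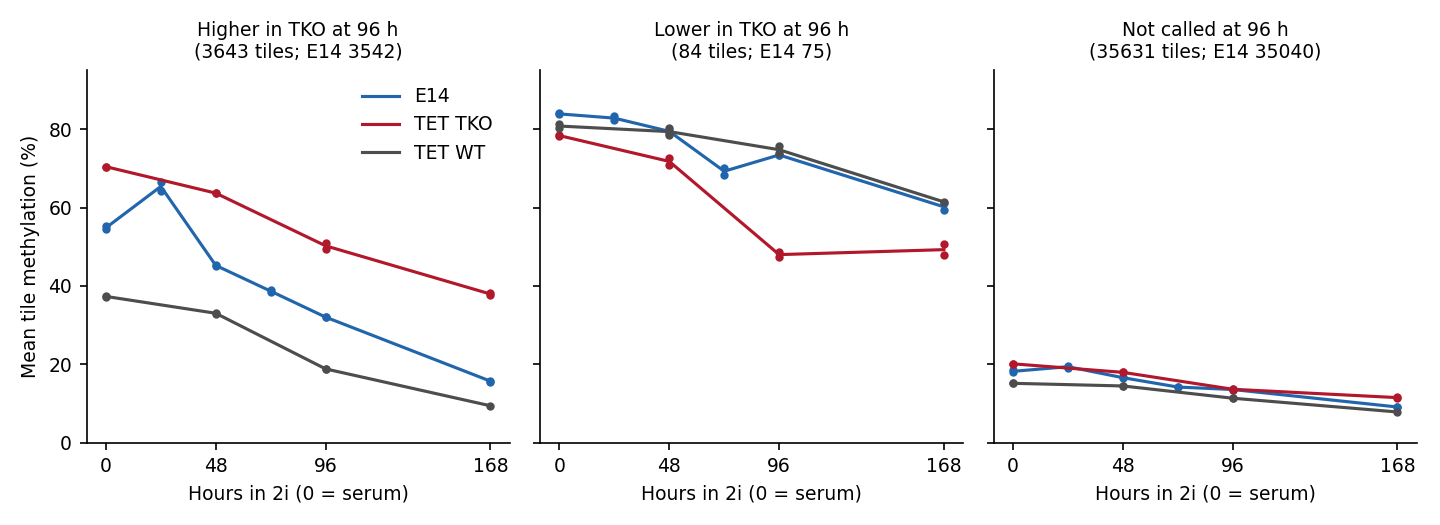
Mean tile methylation (vertical axis, %) against hours in 2i (horizontal axis, 0 is serum) for tiles called higher in TET TKO at 96 h, called lower, and not called. Points are single libraries and lines join their means for TET WT, TET TKO and E14. In the left panel TET TKO lies above both wild-type lines at every time sampled in both, and in the middle panel it lies under both of them at 48 h, 96 h and 168 h, by the most at 96 h.

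The model with both media asked whether the difference between genotypes had changed from serum to 96 h, on the scale of log odds. The change of the gap in points was only a limit on size, and the scales can disagree. Among 43271 tiles with coverage in all 8 libraries, the interaction of genotype and medium was called at 131, with an adjusted p of the quasi-binomial model under 0.05 and a change of the gap of 20 points or more. The gap was larger at 96 h at 12 tiles (0.0277%) and smaller or turned at 119 (0.275%). The 12 tiles had median levels of 50.5% in TET WT and 67.9% in TET TKO in serum, and of 6.51% and 48.3% at 96 h, and all 12 were also called higher at 96 h. The 119 tiles went from 66.5% and 91.1% to 57.7% and 49.5%. In serum TET TKO was the higher line at all 119 and at 96 h at 35 of them, with 8 called higher and 14 called lower at 96 h. Both sets were chosen on their serum and 96 h values, so these levels and counts largely restate the choice. The values of 168 h are a measure that the choice did not use. Over all 43271 tiles TET TKO was the higher line at 36614 in serum and 29066 at 96 h, and 10.1% and 0.299% of the tiles of 96 h were called higher and lower. At 168 h TET TKO was again above TET WT over the 106 of these tiles covered throughout, at 48.5% and 46.1% against 35.7%. The fit with each tile's own dispersion called none (1735 at an unadjusted p under 0.05), and leaving out 1 library gave 30 to 170 tiles. Without TET TKO serum replicate 1 or 2 there were 30 tiles each, without TET WT serum replicate 1 or 2 there were 42 and 56, and without TET WT replicate 1 or 2 of 96 h 42 each.

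Gene names could be given only to promoters that were placed by sequence. The spacing of CpGs in RefSeq promoter sequences was matched to the positions with calls, which put 7010 promoters of 6401 genes at a single place in the order of their chromosome, and 5286 tiles of the comparison held such a promoter. They were almost free of methylation, with means of 0.781% in TET WT and 1.83% in TET TKO. Of the promoter tiles, 57 were higher in TET TKO (1.08%) and 1 was lower (0.0189%), against 11.3% higher among the 39499 other tiles. Only 7010 of 31396 autosomal promoters were placed, and placing needed 8 or more CpGs seen. The other tiles thus include promoters that were not placed, and the contrast is not one of promoters against the rest. The median difference over promoter tiles was 0.13 points. Of the 57 tiles, 25 were under 5% in TET WT at 96 h and 6 were under 5% in TET WT in serum. In serum, 45 of the 56 that could be tested were called higher as well, beside 82.7% of all tiles higher at 96 h and 19.9% of all serum tiles.

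Genes of the germ line act in germ cell formation and meiosis. Of 14 germ line promoter tiles, 4 were called higher in TET TKO, beside 1.08% of promoter tiles and 10.1% of all tiles. These promoters were more methylated than most, with means of 15.9% in TET WT and 27.6% in TET TKO, and of tiles within 500 bp of a start that held 20% or more in E14 serum 34.1% were called higher. With the size and p required, 2 of the 4 calls were lost without TET TKO replicate 1, without TET WT replicate 1 and without TET WT replicate 2, as given for each gene. The adjusted p alone was under 0.05 in that direction at 9 of the 14, beside 6.24% of all promoter tiles and 17.6% of all tiles. In 11 both TET TKO libraries lay above both TET WT libraries, as they did in 21.6% of promoter tiles and 38.8% of all tiles. Their median difference was 10.97 points, beside 0.13 for all promoter tiles and 0.68 for all tiles. Most tiles of these backgrounds were nearly free of methylation, so they are not matched in level. Tiles at 20% to 40% in E14 serum had means of 9.18% in TET WT and 26.6% in TET TKO. Those at 40% to 60% had 21.8% and 41.7%. A wide gap was thus not particular to germ line promoters. Sycp1, which builds the synaptonemal complex that joins chromosomes in meiosis, had 23.0% and 28.2% in TET WT and 66.9% and 46.8% in TET TKO (chr3:102740001-102740500, adjusted p = 2.7e-05, quasi-binomial model). E14, a wild-type line, held 65.4% in serum and 59.2% at 96 h at this tile, no lower than the TET TKO mean of 56.9% ± 14.2 (SD, n = 2). All 17 positions of its promoter window with calls in every library were higher in TET TKO. Hormad1, a protein of meiotic chromosome axes, had 8.84% and 18.8% against 38.1% and 40.2% (chr3:95363501-95364000), and 26 of 27 positions were higher.

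Further germ line promoters showed smaller differences. Asz1, a factor of the piRNA pathway, had 35.7% and 33.3% in TET WT and 59.1% and 57.1% in TET TKO (chr6:18059001-18059500). The libraries did not overlap, but with as few as 21 calls the call was lost without any of the 4 libraries (adjusted p = 0.093 to 0.39, quasi-binomial model) and with limma (adjusted p = 0.073). Sohlh2, a transcription factor of early germ cells, had 10.6% and 5.19% against 32.3% and 24.6% (chr3:54985501-54986000), and its difference of 21.3 points became 18.6 without TET WT replicate 2 and 16.8 without TET TKO replicate 1. Its order was turned at 48 h, when TET WT averaged 28.0% and TET TKO 20.6%. Hormad1 likewise stood at 19.98 points without TET WT replicate 1, just under the limit on size. Dazl, an RNA-binding protein of germ cells, passed the adjusted p (0.011, quasi-binomial model) but differed by 16.6 points and was not called, with 30% and 35.8% against 44.4% and 61.4%. Hormad2 was under the limit on size as well, at 13.05 points (adjusted p = 0.0026, quasi-binomial model), with 4.73% and 2.84% against 18.9% and 12.9%. In both genes every TET TKO library was above those of TET WT. At 96 h E14 held 18.92% at Hormad2, no lower than either TET TKO library, and 35.9% at Dazl, under both of them.

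The other lists held few called promoters, and their counts stand beside the same 1.08% of promoter tiles and 10.1% of all tiles. None was called lower in any list. Among 96 tiles of the Zfp zinc finger genes, a large class of DNA-binding proteins, 3 were called higher, with a median difference of 0.07 points over the list. Zfp560 had 2.05% and 0% in TET WT and 53.2% and 49.5% in TET TKO (chr9:20189501-20190000). Zfp263 had 0.431% and 0% against 46.2% and 29.9% (chr16:3744001-3744500). Both were under 2% in E14 at serum and 96 h and in TET WT serum, and above 60% in TET TKO serum, so these promoters were methylated in TET TKO alone among the 3 lines. Zfp872 had 3.70% and 2.78% against 43.2% and 53.1%, but E14 also held 47.9% in serum. Among 32 ribosomal protein tiles 1 was called, Rpl39l, a variant of a ribosomal protein with high levels in testis, with 23.5% and 25.5% against 59.8% and 64.1%.

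Imprinted genes, which are expressed from 1 parental copy, had 1 called tile of 14, where 1.08% of promoter tiles and 10.1% of all tiles were called higher. It was at Commd1, with 0% and 0% in TET WT against 19.4% and 24.7% in TET TKO (chr11:22872501-22873000), a difference of 20.9 points that became 19.4 without TET TKO replicate 2. In serum TET WT held 0.542% and TET TKO 20.9% there, whereas E14 held 36.8% in serum and 36.1% at 96 h. Of 7 tiles of naive pluripotency genes 1 was called, at Bmp4, a signalling ligand that supports self-renewal in serum. It had 3.23% and 2.04% in TET WT, and 34.9% and 4.00% in TET TKO, so the difference rested on TET TKO replicate 1 and was 1.30 points without it (adjusted p = 0.97, quasi-binomial model). Its call was also lost without TET WT replicate 1 (adjusted p = 0.12), without TET WT replicate 2 (adjusted p = 0.11) and with limma (adjusted p = 0.10). No tile was called among 9 of the DNA methylation machinery, 9 of formative and lineage genes, 50 of developmental transcription factor and Wnt families and 6 of Hox genes. In the family list 10 of 50 tiles had an adjusted p under 0.05 in the direction of TET TKO with differences under 20 points, beside the 6.24% of promoter tiles and 17.6% of all tiles given for that count. En1, a homeobox factor, was among them with 0% and 0% against 8.06% and 8.602%. Promoters that did not pass included Dnmt3a, a de novo methyltransferase, at 0% and 0.763% against 0.633% and 1.89%, and Klf2, a naive transcription factor, at 0.173% and 0.195% against 0% and 0%. For the 9 two-cell stage genes with promoter sequence no tile could be placed.

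**Figure D5:**
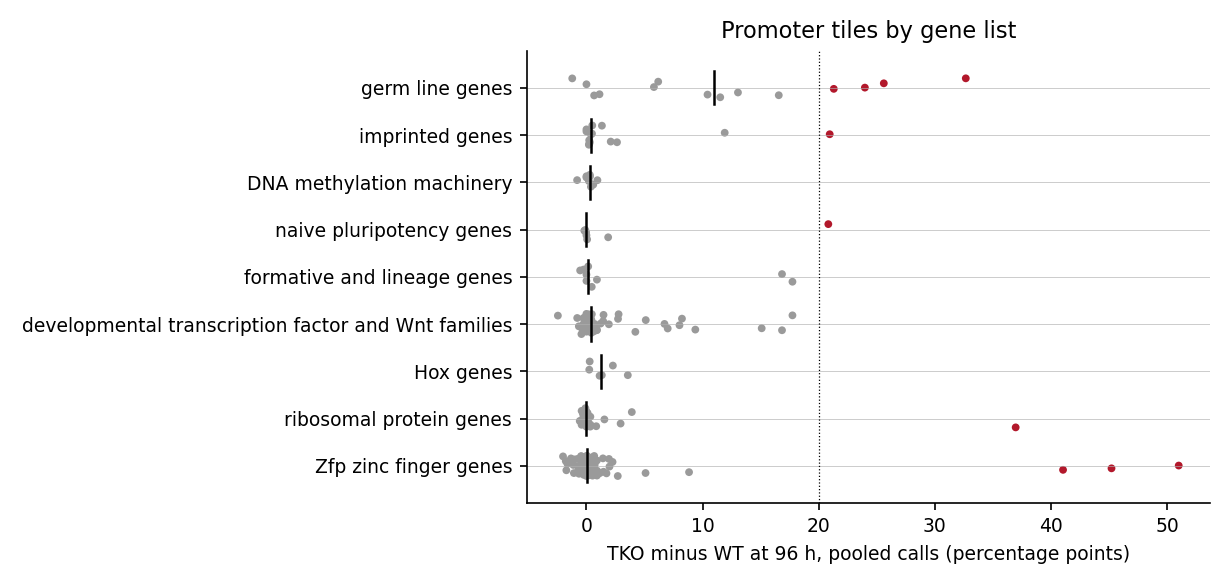
Difference between TET TKO and TET WT at 96 h (horizontal axis, percentage points of pooled calls) for each promoter tile of 9 gene lists. Red points were called higher, grey points were not called, short lines are list medians, and the dotted line marks 20 points. The germ line list has a median of 10.97 points, whereas the other medians lie between 0 and 1.23. The lists are not matched in level, with TET WT means of 15.9% in the germ line list and of 0.354% to 1.74% in the others.

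The largest differences at promoters lay at genes of varied function. Gpat2, a testis-expressed acyltransferase homologue that takes part in the piRNA pathway, had 6.02% and 6.11% in TET WT and 58.2% and 60.5% in TET TKO (chr2:127250501-127251000, 52.7 points). The predicted genes Gm10046, Gm51541 and Gm42008 and the RIKEN clone gene 2610027F03Rik differed by 48.99, 43.3, 42.4 and 41.4 points. Trib2, a pseudokinase, had 19.05% and 15.2% against 54.0% and 66.7%, and its call was lost without TET WT replicate 2 (adjusted p = 0.090, quasi-binomial model) or TET TKO replicate 2 (adjusted p = 0.051). Fer, a tyrosine kinase, had 5.00% and 1.94% against 44.7% and 46.7%. The promoter tile lower in TET TKO, C230014O12Rik, had 61.7% and 77.2% against 53.1% and 37.7%. It lost its call with limma (adjusted p = 0.098), and without TET WT replicate 2 or TET TKO replicate 2, when the differences were -13.5 and -15.2 points.

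The letters CACGTG, the E-box that several helix-loop-helix factors bind, were searched on both strands in the 300 bases from 250 before to 50 after each start. They were found in the promoters of Sycp1 and Hormad1, where the central CpG is printed in capitals, and in 6 of the 62 promoters with a tile higher in TET TKO (9.68%). The same letters were in 7.14% of 31396 autosomal promoters and in 10.8% of the 5757 with a tested tile. A second motif, TCCCGC, was in 30.6% of the 62 promoters, in 20.2% of all and in 41.5% of those with a tested tile. It is absent from the windows of Zfp560, Sohlh2 and Asz1.

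RNA values were used from E14 only, in serum and at 72 h in 2i among other times, as log2 values corrected for length and depth. Of the genes with a higher promoter tile, 37 were in that table, with medians of -0.01 in serum and -0.39 at 72 h on the log2 scale, beside 2.34 and 2.34 for 4521 genes with a tested promoter tile. Of the 37 genes, 18 were higher and 19 lower at 72 h than in serum by their means, beside 2107 and 2414 of the 4521 genes. Some of the 37 lay at very low values, such as Duoxa1 and Gm17089, which held the same change of -0.0458. For such genes the direction says little about expression. The genes given were chosen after their values were seen. Gpat2 stood at 1.16 ± 0.06 (SD, n = 3) in serum and 2.65 ± 0.18 (SD, n = 3) at 72 h on that scale. Hormad1 stood at 2.14 ± 0.27 (SD, n = 3) and 3.17 ± 0.11 (SD, n = 3), and Sohlh2 at 1.63 ± 0.09 (SD, n = 3) and 2.75 ± 0.07 (SD, n = 3). The libraries of 72 h lay above those of serum in these 3. Sycp1 stood at 0.51 and 0.82, with E14 methylation of 65.4% in serum and 59.2% at 96 h, and Zfp560 at -0.01 and -0.13, with 1.68% and 0.796%. Trib2 stood at 0.40 in serum and -1.56 at 72 h, and Rpl39l at 4.10 and 3.94. At the promoter tiles of Gpat2, Hormad1 and Sohlh2 E14 methylation was 38.4%, 35.7% and 19.09% in serum and 8.39%, 24.5% and 11.7% at 96 h. Other genes of the 37 fell in both measures. At Atf7ip methylation went from 43.7% to 24.2% and RNA from 4.175 to 3.00. At Acta1 methylation went from 73.6% to 51.0% and RNA from 3.19 to 2.09. Trib2, with falling RNA, had 32.4% and 28.3%. The relation of methylation to RNA in the TET lines was not tested.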

How the data were processed

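RRBS libraries of TET WT and TET TKO ESCs at 96 h in 2i (2 each) were compared, with groups as the labels give them. For each library the authors deposited counts of methylated and unmethylated calls per cytosine position. The submitters' processing notes name Trim Galore 0.3.5, Bismark 0.12.3 and Bowtie2, and the study names NCBIM37 for these reads. The RNA table that the authors made holds log2 expression of each gene after correction for length and depth. The members of the comparison, gene lists and rules were chosen with earlier results of these data known.

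Calls were summed over autosomal tiles of 500 bp that held at least 20 calls and 3 positions in each library of a fit. Tiles were tested in R 4.3.3 by a quasi-binomial logistic fit whose dispersions were shrunk with limma 3.58.1 (function squeezeVar, prior dispersion 1.461, prior df 30.16, estimated from tiles with levels between 5% and 95%), an F test and Benjamini-Hochberg adjustment. Other steps used Python 3.11.15. On simulated counts for the 44785 tiles with 200 changed tiles, the fit recovered 9 of 67 at 20 points, 24 of 67 at 30 and 49 of 66 at 40, and called none of the 44585 unchanged tiles. All simulated tiles were given the same spread, which the fit assumes, so the absence of false calls was close to fixed. With so few changed tiles the adjustment was also stricter than in the data, so these shares may not hold for the real tiles. For the interaction on 43271 tiles the fit recovered 4 of 67, 7 of 67 and 28 of 66. Limma on log2 ratios recovered 0 at each size of the interaction, so its low count there says nothing about stability. At 96 h limma recovered 0 of 67 at 20 points, 2 of 67 at 30 and 27 of 66 at 40, fewer than the fit at each size. The depth per library and its effect are given with the results.

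Tiles named are the 5 called tiles with the largest difference in each direction without overlap of libraries, the 3 longest runs of called tiles, and the 3 interaction tiles of largest change in each direction. Promoters named are called members of the lists (up to 6 each), the first 2 others by alphabet, and the 10 largest higher and 5 largest lower overall.

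Gene names come from RefSeq promoters (GRCm38.p6, 250 bases before to 50 after the start) whose CpG spacing matched the positions with calls at 1 place, with 8 or more CpGs seen. Of 31396 autosomal promoters, 15382 had 8 or more CpGs and 7181 matched at 1 place on their own chromosome, while 969 matched at 1 place on another chromosome. Matches out of the gene order of the chromosome were dropped, a step added after seeing the files, which left 97.6%. No coordinate was carried between builds. The labels name no pairs, so replicate numbers were not used as pairs in the main fit. Same-numbered libraries did not deviate together (r = 0.0042), but much of such deviations is counting error, so that value cannot decide the choice. H3K9me2 and ChIP-bisulfite data of E14 were not used here. Read filters and deduplication were not looked up beyond the labels, the files and the main text of the study.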

Additional observations from a re-analysis of the deposited data

Results flagged for a closer look

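The gap between TET TKO and TET WT differed between serum and 96 h, by the interaction term of the quasi-binomial model, at 119 tiles where it was smaller or turned at 96 h and at 12 tiles where it was larger. The largest growth of the gap was 58.4 points at chr7:139529001-139529500 (adjusted p = 0.019). TET WT went from 69.8% and 82.8% in serum to 5.33% and 9.09% there, and TET TKO from 85.7% and 96.5% to 81.8% and 74.1%. The changes were 45.4 points at chr6:70842501-70843000 (adjusted p = 0.011) and 41.5 points at chr8:111861501-111862000 (adjusted p = 0.043).

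In the other direction the change was -58.2 points at chr6:35208501-35209000 (adjusted p = 0.0047). TET WT had 18.2% and 24.3% in serum and 32.3% and 29.3% at 96 h, and TET TKO 82.0% and 73.8% in serum and 36.4% and 21.2% at 96 h. At 168 h TET TKO was above TET WT again at this tile, with 54.2% and 50.0% against 9.38% in the single TET WT library. The changes were -56.7 points at chr6:88843001-88843500 (adjusted p = 0.0047) and -55.6 points at chr10:79823001-79823500 (adjusted p = 0.014). Each of these 6 tiles lost its call in at least 1 fit that left out a library.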

How the results depend on the processing

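The number of calls depended on how the spread was estimated. Limma on log2 ratios, which also shares spread among tiles, called 3841 tiles at 96 h, 3779 of them among the main calls. No direction turned among the 34 named results recomputed, but most alternatives keep the difference itself or, with libraries that do not overlap, could not turn it. Against 4670 tiles called at 96 h, a minimum of 10 calls gave 7667 of 65402 tiles and a minimum of 50 calls gave 712 of 22521. Without a minimum difference 8132 tiles passed and with 30 points 2307. With each tile's own dispersion 0 passed (3712 at an unadjusted p under 0.05), on only 2 residual degrees of freedom. Leaving out 1 library gave 2693 to 3204 tiles. For the interaction, against 131 tiles, the counts were 215 with 10 calls, 6 with 50 calls, 2 with limma on log2 ratios (void here, since it recovered no change in the self-test) and 0 with each tile's own dispersion, and 30 to 170 when 1 library was left out. When 12 CpGs had to be seen, the 1 called promoter of the naive pluripotency list became 0 and the 3 of the Zfp list became 2. Named promoters with fewer CpGs seen, such as Gpat2 (9), Zfp872 (11) and C230014O12Rik (8), drop out under that rule. The mean difference of 5.39 points was 2.12 with 50 calls, 6.70 with 10 calls, 1.92 with all calls pooled and 5.22 to 5.56 without 1 library.

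With the replicate number as a block 3 tiles were called at 96 h, all higher in TET TKO (11162 at an unadjusted p under 0.05), on 1 residual degree of freedom, and 93 for the interaction. Same-numbered libraries did not deviate together (r = 0.0042), but much of such deviations is counting error. That value therefore cannot show that they share only a number, and the labels do not say. Of the 28 named results of 96 h 25 kept their call with limma and 1, Zfp263, with the block, and of the 6 interaction changes 5 kept it with the block. Where a library was left out of a genotype, its lone library was assumed to vary like the other genotype. TET TKO replicate 2 limits depth in most tiles.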

Other observations

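On the X chromosome, which the rule on tiles left out, 633 tiles passed the same coverage. Their mean was 9.29% and 8.94% in the TET WT libraries and 12.3% and 11.5% in the TET TKO libraries, so the groups did not overlap. At 30 of these tiles (4.74%) TET TKO was higher by 20 points or more without overlap of libraries, and at 4 it was lower by as much. By the same count 11.5% of the autosomal tiles were higher. By size alone, 224 of the 44785 autosomal tiles were lower by 20 points or more.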
